A study of Sus scrofa with 67 samples.

Results

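RNA-seq read counts of the pig ovary, endometrium and oviduct were taken over the oestrous cycle. A few genes met a lower limit on mean level on every ovary day and a low upper limit in the other tissues. Of 25322 genes in the table, 6 of these are described here. A gene was taken when its mean level was at least 5 CPM (the usual scaling of a count by the total count of its library) in the ovary on all 7 days, at most 1 CPM in all 14 groups of endometrium and oviduct, within 0.5 and 2 for the ratio of ovary day 9 to day 0 (each mean plus 1 CPM), and when its highest ovary day stood under 2 times the second highest. The 6 genes were NR5A1 (ENSSSCG00000005588), MKX (ENSSSCG00000029783), EPOR (ENSSSCG00000013618), QRFPR (ENSSSCG00000009098), COL6A5 (ENSSSCG00000011186) and ENSSSCG00000005592, which has no symbol. The genes were thus chosen by their measured CPM in the 3 tissues and on all 7 ovary days. The contrasts of tissues and of day 9 with day 0 are described here and not tested, and the limits on every ovary day bound the other comparisons of days as well, so the tests of those below are read as descriptions of the genes.

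The pigs were crossbred Landrace × Yorkshire gilts of similar age with normal cycles, with no treatment named in the labels, and day 0 was the first day of oestrous behaviour. Tissue was taken at intervals of 3 days, from day 0 up to day 18. The ovary had 3 libraries on days 0, 6, 9 and 18, 2 on day 3 and 4 on days 12 and 15, which makes 22 libraries, and the endometrium and oviduct had 44 between them. The study collected tissue from 3 gilts a day, so by that number at least 2 of the 4 ovary libraries of day 12, and of day 15, share a gilt, and p-values that count them as separate are too small. Libraries are called here by the number they carry within their tissue and day. The labels do not say which libraries came from which gilt, so p-values measure the spread between these libraries, which may in part be technical.

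In the ovary, follicles made of an oocyte, granulosa cells and theca cells grow, ovulate and become corpora lutea, which secrete progesterone until they regress. The steroid-producing cells of all these structures depend on the nuclear receptor steroidogenic factor 1, the product of NR5A1, which binds the promoters of the genes that turn cholesterol into steroid hormones. Steroidogenic factor 1 is made in the gonads and adrenals and hardly at all in the epithelium and stroma of the uterus and oviduct. The named members were transcription factors (NR5A1, MKX), cell surface receptors (EPOR, QRFPR) and a matrix protein (COL6A5).

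Total counts in the ovary libraries were between 10264680 and 13442083, and 3 counts corresponded to 0.223 to 0.292 CPM. Most markers of the labelled tissues had their highest median there, but not all. CYP11A1, the enzyme that starts steroid synthesis from cholesterol, was at 167 CPM or more in each of the 22 ovary libraries at 7.70 CPM or less in the endometrium and at up to 232 CPM in the oviduct, and all 7 theca, interstitial and granulosa genes in the table had their highest median in the ovary. Of the 17 oocyte genes in the table, 8 had it in the ovary and 7 in the oviduct, GDF9 among the latter, and of 4 stroma and gonad genes 3 had it in the ovary, while WT1 had a median of 25.2 CPM in the ovary and 272 CPM in the oviduct. Both oviduct epithelium genes in the table and all 4 endometrium genes were highest in their own tissue. Marker levels varied widely within the ovary. In day 12 library 1 CYP11A1 was at 167 CPM, against 5159 to 9045 in the other 3 libraries of that day, while INSL3, a product of theca cells, was at 285 CPM against at most 0.94. Summed levels of the oviduct epithelium genes OVGP1 and FOXJ1 ran from 3.75 to 1986 CPM across the ovary libraries. The sampled ovary is a whole organ, so fewer cells of a type and less RNA per cell cannot be told apart.

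All 6 genes had mean levels above those of the other tissues, as the limits require, and by margins that differed. Mean ovary levels over the 7 days were 36.1 CPM for NR5A1, between 11.9 and 12.5 CPM for MKX, COL6A5, QRFPR and ENSSSCG00000005592, and 7.08 CPM for EPOR. These are shares of reads and are not corrected for transcript length, so they do not rank the genes by transcript number. The mean over the ovary days exceeded the highest group mean outside the ovary by 51.2 times for NR5A1, 37.2 for MKX, 35.0 for COL6A5, 26.2 for ENSSSCG00000005592, 25.5 for QRFPR and 7.09 for EPOR. For 5 genes all 22 ovary libraries lay above all 44 others. The exception was QRFPR, for which 20 of 22 did, because the ovary libraries day 12 number 3 (0.342 CPM) and day 15 number 4 (0.484 CPM) fell below the highest oviduct library (0.757 CPM).

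**Figure D1:**
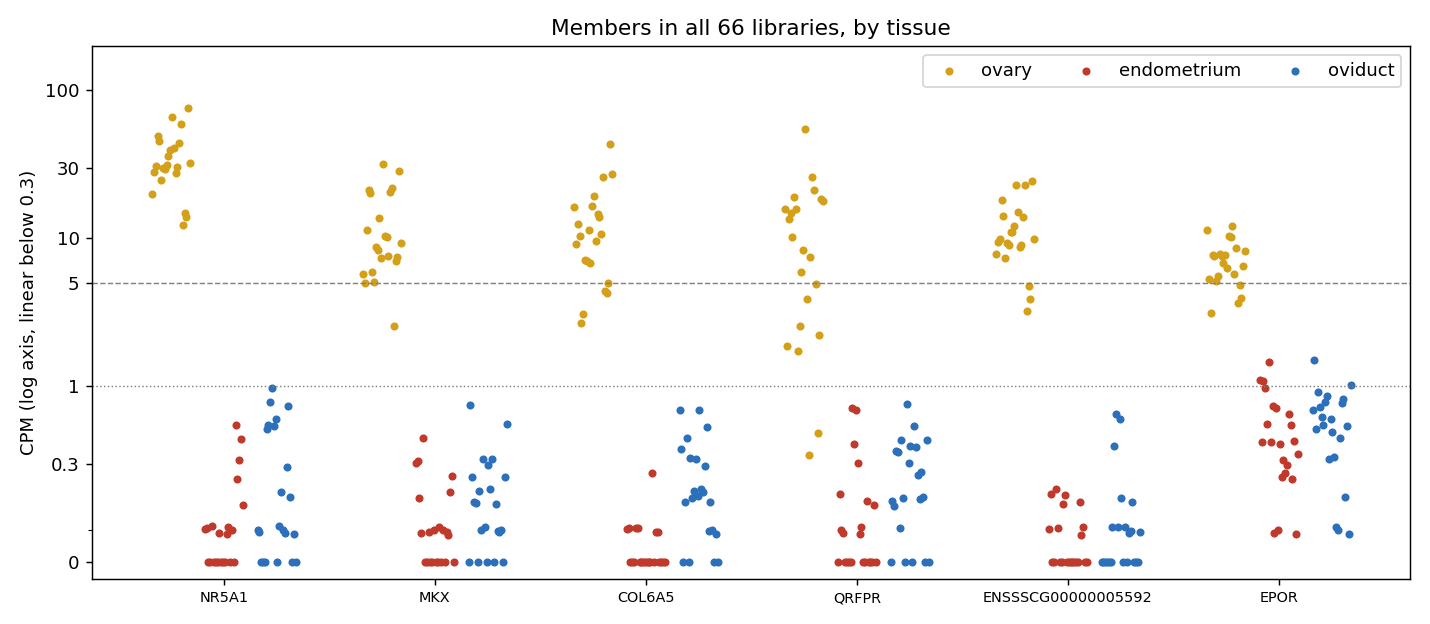
Level of each gene (CPM, log axis that is linear below 0.3) in each of the 66 libraries, with ovary, endometrium and oviduct in separate colours and the limits of 5 and 1 CPM on group means as dashed and dotted lines. Ovary libraries form a separate upper band for every gene but QRFPR, whose lowest ovary library was at 0.342 CPM, and EPOR has the highest levels outside the ovary, up to 1.5 CPM.

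The distance from the limits differed among the genes. EPOR, the receptor through which erythropoietin keeps red cell precursors alive, only just met the limit outside the ovary, with a highest group mean of 0.998 CPM (endometrium day 3) and single libraries of up to 1.5 CPM, and it was the 1 member with a read in all 44 libraries of the other tissues. QRFPR, EPOR and COL6A5 came close to the lower limit in the ovary, with lowest day means of 5.62, 5.70 and 5.76 CPM. Just outside the limits lay MMP16, a membrane-type matrix metalloproteinase, whose lowest ovary day mean was 4.73 CPM, and GPC6, a glypican, whose highest group outside the ovary was at 1.16 CPM. TMEM229A met the tissue limits, but its highest ovary day was 3.42 times the second, and ENSSSCG00000028253 met them with a day 9 to day 0 ratio of 2.16. By the same limits, 6 genes were restricted to the oviduct and 2 to the endometrium.

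Reads of the 6 genes outside the ovary were few. COL6A5 had 9 counts in all 22 endometrium libraries together and 15 of them were at 0, and ENSSSCG00000005592 had 14 counts with 13 libraries at 0. EPOR, with 0 of the 44 libraries without a read, was detected most widely. Most values outside the ovary were at or below 3 counts, and the reads carry no molecular identifiers, so such floors cover counting error only.

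The highest oviduct group for NR5A1 and ENSSSCG00000005592 was day 9. NR5A1 was at 0.972, 0.540 and 0.604 CPM in the 3 oviduct libraries of day 9, and at 0.0997, 0.0940 and 0 CPM in those of day 0. In the same oviduct libraries CYP11A1 was at 132 to 232 CPM on day 9 and at 18.0 to 26.4 CPM on day 0, so a steroidogenic marker was higher in the libraries in which NR5A1 was higher. NR5A2, of the granulosa list, was also higher on day 9 (19.6 to 49.1 CPM against 0.897 to 2.59). CYP17A1 overlapped between these days, at 0.757 to 3.22 CPM on day 9 and 1.69 to 6.57 CPM on day 0, and so did INHA, whose day 0 libraries were at 0.299, 1.60 and 41.4 CPM and those of day 9 at 8.15 to 21.2 CPM. The part of other cells in the reads of NR5A1 was not tested, nor was a difference between oviduct days.

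The measured neighbours of NR5A1, EPOR and QRFPR in the pig genome did not meet the limits that chose the members. In the gene order of the RefSeq annotation of assembly Sscrofa11.1, used here for names only because the counts were made on an older build, NR5A1 lies between ADGRD2 and NR6A1. Their mean ovary levels were 0.745 and 1.75 CPM, and their highest groups outside the ovary 10.1 and 2.99 CPM, the reverse of NR5A1. RGL3, a neighbour of EPOR, was at 13.7 CPM in the ovary and 30.2 CPM in its highest other group. Of the neighbours of QRFPR, ANXA5 was at 659 CPM in the ovary and 556 CPM in its highest other group, and TNIP3 was hardly detected in any tissue.

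Across the cycle the ovary levels held within a fairly narrow range of day means for some genes and not for others. The highest day mean was 1.72 times the lowest for EPOR, 1.80 times for NR5A1 and 1.89 times for ENSSSCG00000005592, but 2.98 times for QRFPR, 3.16 for MKX and 4.39 for COL6A5. The limits that chose the genes bound only day 9 against day 0 and the highest day against the second, and each day only from below, so the word stable covers those contrasts and not the whole cycle. For each gene the largest fold between libraries of 1 day exceeded the fold between day means. These are unlike measures, since averaging narrows the fold between means, so nothing is read from their order. The highest library exceeded the lowest of the same day by up to 3.64 times for EPOR (day 0), 5.50 for NR5A1 (day 18), 7.11 for ENSSSCG00000005592 (day 15), 8.56 for MKX (day 15), 8.78 for COL6A5 (day 18) and 161 for QRFPR (day 12).

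**Figure D2:**
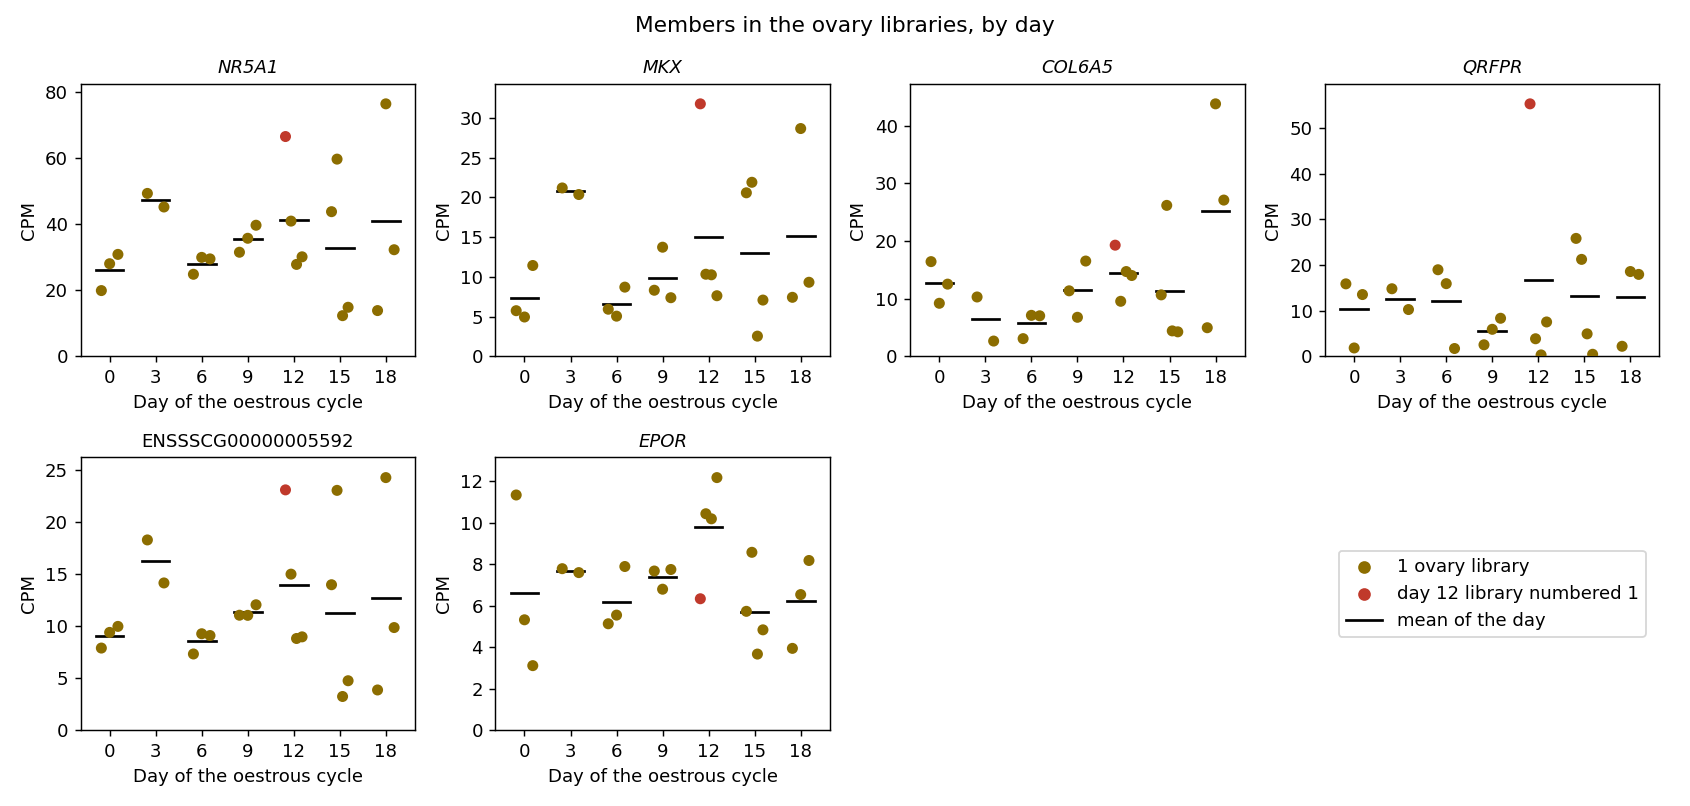
Level in the ovary (CPM, linear axis from 0) of each gene by day of the oestrous cycle, each point being 1 library and each black line the mean of a day, with day 12 library 1 in red. COL6A5 is between 3.09 and 7.13 CPM in the 3 libraries of day 6, and NR5A1 spreads from 12.4 to 59.8 CPM within day 15.

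NR5A1, the regulator of steroidogenic genes, was well above the floor in every ovary library. Day 0 libraries were at 20.0, 28.1 and 30.9 CPM, those of day 3 at 49.4 and 45.3, those of day 6 at 24.9, 30.02 and 29.6, and those of day 9 at 31.6, 35.8 and 39.8. Day 12 libraries were at 66.6, 41.0, 27.9 and 30.2 CPM, those of day 15 at 43.9, 59.8, 12.4 and 14.9, and those of day 18 at 13.9, 76.5 and 32.3. Early in the cycle the libraries of a day lay close together, and on library totals both day 3 libraries were above those of days 0, 6 and 9. With TMM scaling, which the tests below use, they were at 42.4 and 44.5 and overlapped with day 9, whose library 3 was at 48.1. From day 12 on, the range within a day covered nearly all levels seen earlier, and both the lowest (12.4 CPM) and the highest (76.5 CPM) libraries came from days 15 and 18. In the order of day means, from day 3 (47.3 CPM) to day 0 (26.3 CPM), no 2 neighbouring days had ranges that were apart.

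MKX, the Mohawk homeobox factor known for tendon differentiation, was at 21.2 and 20.4 CPM on day 3, above the 3 libraries each of day 0 (5.76, 4.96 and 11.4), day 6 (5.94, 5.07 and 8.72) and day 9 (8.33, 13.7 and 7.39). Later it spread from 2.56 CPM (day 15 library 3) to 31.8 CPM (day 12 library 1). The other day 12 libraries were at 10.3, 10.3 and 7.64 CPM, so 1 library carried the mean of that day, 15.0 ± 11.2 CPM (SD, n = 4 libraries).

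EPOR varied least. Its 22 ovary libraries had a lowest value of 3.11, a median of 7.19 and a highest of 12.2 CPM. On day 12 it was at 6.33, 10.4, 10.18 and 12.2 CPM, and on day 0 at 11.3, 5.32 and 3.11 CPM. Its order differed from that of the other genes, since day 12 library 1, the highest of all ovary libraries for MKX and QRFPR, was the lowest of day 12 for EPOR. All 21 pairs of days overlapped for EPOR.

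QRFPR, the receptor of the neuropeptide QRFP, was the most uneven. Day 12 gave 55.2, 3.88, 0.342 and 7.55 CPM, and day 15 gave 25.8, 21.2, 4.95 and 0.484 CPM. Low libraries were not confined to late days, since day 0 held 15.9, 1.86 and 13.5 CPM and day 6 held 19.0, 15.9 and 1.74 CPM. Day means of 5.62 to 16.8 CPM thus combined libraries with up to 567 reads of QRFPR and libraries with a handful, 6 in day 15 library 4.

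COL6A5, an alpha chain of collagen VI, was lowest by its mean on day 6 (3.09, 7.13 and 7.05 CPM) and highest on day 18 (4.98, 43.8 and 27.1 CPM). Day 6 lay below day 0 (16.4, 9.22 and 12.5 CPM) and day 12 (19.3, 9.56, 14.7 and 14.03 CPM) in every library. Day 18 overlapped with day 6 through its library 1.

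The range of levels on a day seldom stood clear of that on another. Of the 126 combinations of a gene and a pair of days, 16 (12.7%) had ranges that did not overlap, where the figure for all 15638 genes tested in the ovary was 22.6%. Without ENSSSCG00000005592, which follows NR5A1 closely, it was 11 of 105 (10.5%). With TMM scaling, chosen after seeing the data, 17 of the 126 (13.5%) were apart, beside 21% of all genes, and the pairs changed in part, with 0 for QRFPR, 1 for EPOR and 3 for COL6A5. The limits that chose the genes bound differences between days, so nothing is read from the lower share. On library totals, the members apart between days 3 and 0 were 3 (NR5A1, MKX and ENSSSCG00000005592) beside 37.4% of all genes, between days 6 and 0 there was 1 (COL6A5) beside 46.6%, and between days 18 and 6 there were 0 beside 37.2%. Those apart were 5 pairs of days each for NR5A1 and ENSSSCG00000005592, 3 for MKX, 2 for COL6A5, 1 for QRFPR and 0 for EPOR. They involved days 0, 3, 6 and 9 in all cases but COL6A5 on day 12 against day 6.

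The days were compared with edgeR's quasi-likelihood test over all ovary libraries, with Benjamini-Hochberg adjustment over the 15638 genes that passed a filter on low counts, and all 6 members passed it. No gene of the set was called on day 3, 6, 12, 15 or 18 against day 0 at an adjusted p under 0.05. The calls among all genes came to 0.179% for day 3, 12.6% for day 6, 9.26% for day 12, 0.0256% for day 15 and 0% for day 18. With an unadjusted p under 0.05 there was 1 member for day 3 (MKX), 1 for day 12 (EPOR) and 0 for days 6, 15 and 18, beside 17.5%, 26.9%, 31.6%, 12.3% and 4.54% of all genes for those days in the same order. DESeq2 called 0 of the 6 in each of the 5 comparisons, and of all genes 4.18% for day 3, 15.3% for day 6, 12.5% for day 12, 1.21% for day 15 and 0.126% for day 18.

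On day 3, MKX was at a log2 fold change of 1.55 ± 0.65 (SE) against day 0 with an adjusted p of 0.232 in edgeR's quasi-likelihood test. On day 6, COL6A5 was at -0.74 ± 0.67 with an adjusted p of 0.469 in the same edgeR test. EPOR on day 12 was at 0.92 ± 0.40 with an adjusted p of 0.143 in edgeR. Without day 12 library 1, EPOR was at 1.16 with an adjusted p of 0.0299, and without that library and day 0 library 1, both lowest in CYP11A1 for their day, at 1.75 ± 0.36 with an adjusted p of 0.00622 (edgeR). All genes called in these 2 fits came to 25.8% and 14.3%. A difference in EPOR between days 12 and 0 therefore passed the test or missed it by the inclusion of 1 library.

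Day 9 against day 0, which the limits used, gave log2 fold changes between -0.52 (QRFPR) and 0.75 (NR5A1) for the 6 genes, and edgeR called 8.6% of all genes there.

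Day 18 against day 6 shared no library with days 0 and 9. Of the 6 members 0 were called there, where edgeR called 12.5% of all genes and 5.16% as higher on day 18, and DESeq2 also called 0 of the 6. With an unadjusted p under 0.05 there was 1, beside 32.1% of all genes, and DESeq2 called 16.2% of all. This was COL6A5, which was at 1.69 ± 0.68 on the log2 scale with an adjusted p of 0.102 in edgeR's quasi-likelihood test. Without day 18 library 1, in which it was at 4.98 CPM, COL6A5 was at 2.13 with an adjusted p of 0.0456 in edgeR, where 10.4% of all genes were called, and over all alternatives tried its adjusted p ran from 0.0456 to 0.33. MKX was at 0.79 ± 0.60, and the other 4 genes lay between -0.39 (QRFPR) and 0.12 (ENSSSCG00000005592). The median over the 6 was 0.11 beside 0.09 over all genes.

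**Figure D3:**
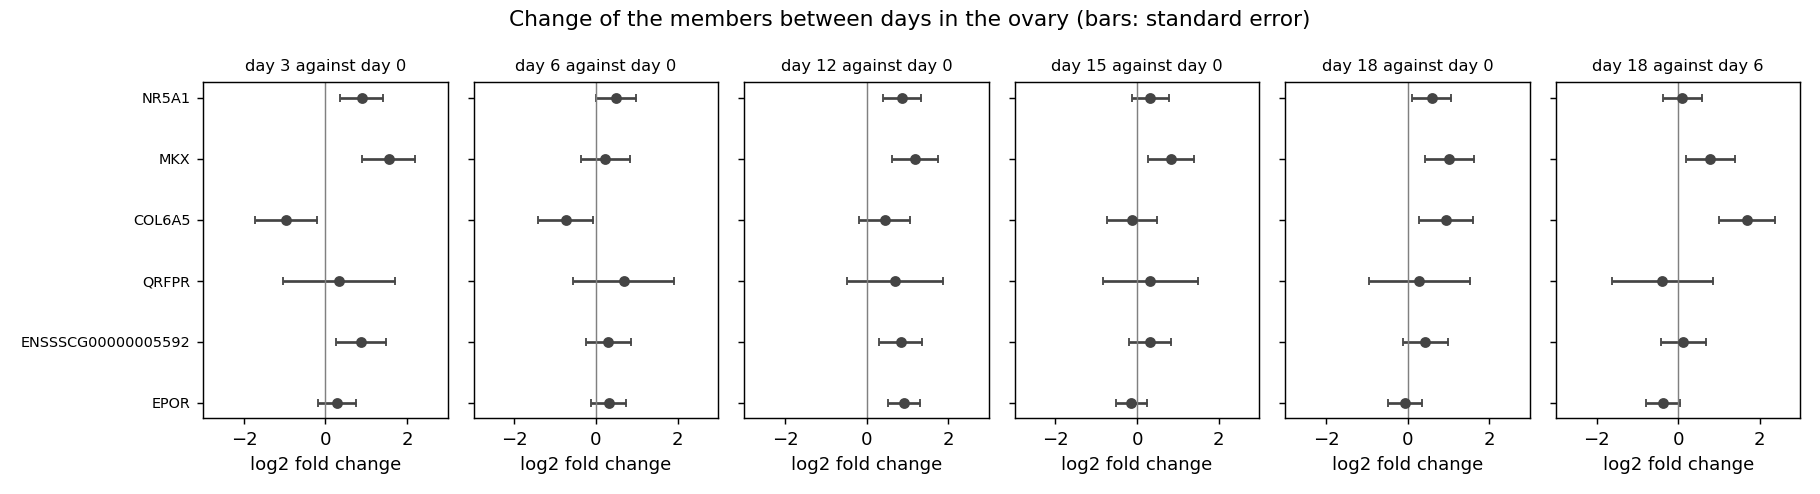
Log2 fold change of each gene in the ovary for 6 comparisons of days, as points with the standard error as bars, from edgeR. No point has an adjusted p under 0.05, the value farthest from 0 is that of COL6A5 on day 18 against day 6 (1.69), and QRFPR has the widest bars in every comparison.

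A test of any difference among days 3, 6, 12, 15 and 18, which leaves out days 0 and 9 but not the limits on every day, called 0 of the 6 genes at an adjusted p under 0.05 against 8.52% of all genes (edgeR's quasi-likelihood test), and 0 of the 6 had an unadjusted p under 0.05. The unadjusted share was 28.5% of all genes. DESeq2 also called 0 of the 6, and 17.3% of all. Without day 12 library 1, and without it and day 0 library 1, edgeR called 1 (EPOR) and 22.7% and 21.9% of all genes. Adjusted p-values in edgeR ran from 0.200 for EPOR to 0.995 for QRFPR. The precision differed between genes, since standard errors of the fold changes against day 0 were 0.39 to 0.46 for EPOR and 1.17 to 1.38 for QRFPR. For QRFPR a missed threshold leaves room for differences of several fold.

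Fold changes of the members against day 0 share the day 0 libraries and are given side by side. For days 3, 6, 12, 15 and 18 in turn, the median over the 6 genes was 0.60, 0.31, 0.86, 0.32 and 0.51, and the median over all genes -0.06, -0.04, 0.02, 0.08 and 0.02. On day 12, 6 of 6 were above 0, from 0.44 for COL6A5 to 1.19 for MKX, but without day 12 library 1 QRFPR turned from 0.69 to -0.97 and MKX was at 0.79. On day 6 the members split, with COL6A5 (-0.74) below 0 and the other 5 between 0.23 and 0.68. With library totals in place of TMM scaling the median of all genes moved to -0.44 on day 6 and -0.23 on day 12, and 5 and 6 of the members stayed above that median, though on day 6 only 2 of 6 were then above 0. Without day 0 and day 12 libraries 1, 5 of 6 were above 0 on day 12.

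Libraries of 1 day differed more in 5 of these genes than in most genes of like level. The pooled standard deviation within days of log2(CPM + 1), after TMM scaling, was 0.457 for EPOR, 0.612 for NR5A1, 0.646 for ENSSSCG00000005592, 0.716 for MKX, 0.807 for COL6A5 and 1.56 for QRFPR, against a median of 0.396 over all genes tested. Among genes within 0.25 log2 units of its own mean level, NR5A1 exceeded 83.5%, MKX 80.2%, COL6A5 84.7%, QRFPR 98.3%, ENSSSCG00000005592 75.0% and EPOR 50.1%. EPOR stood at the middle of the genes of its level.

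The libraries that were high in 1 member were often high in others. In day 0 library 2, day 15 libraries 3 and 4 and day 18 library 1, 0 of the 6 genes was above its own median over the 22 ovary libraries, and the summed level of the 6 was 58.9, 31.2, 36.3 and 36.4 CPM. In day 15 library 2 all 6 were above their medians, and in both day 3 libraries, day 12 library 1, day 15 library 1 and day 18 libraries 2 and 3 the number was 5. Summed levels were highest in day 12 library 1 (202 CPM), day 18 library 2 (198 CPM) and day 15 library 2 (161 CPM).

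**Figure D4:**
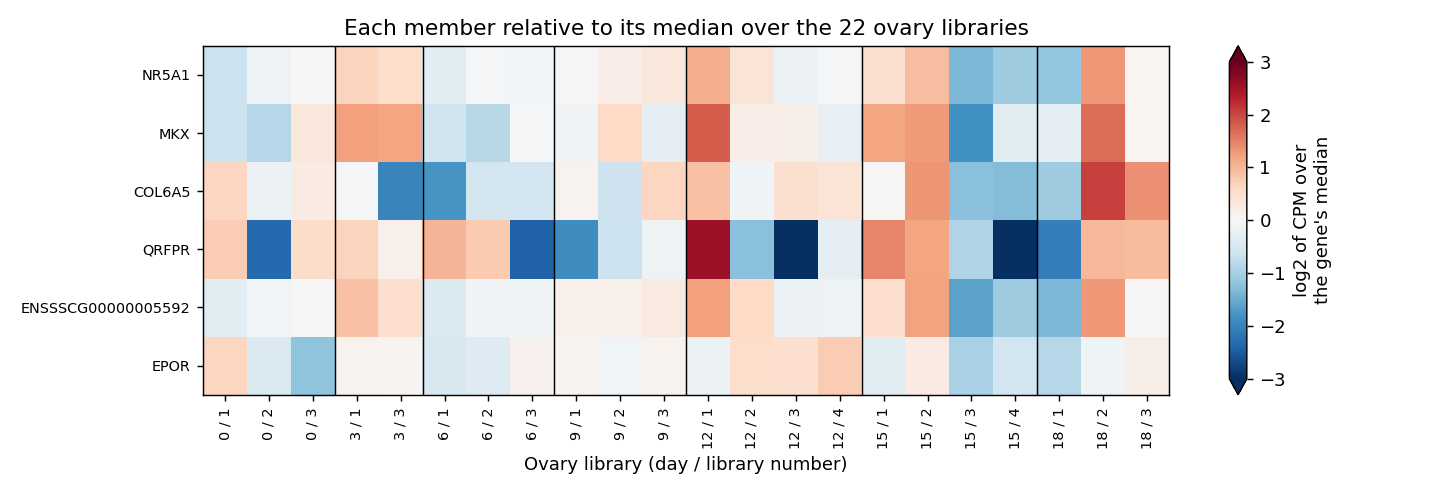
Level of each gene in each of the 22 ovary libraries (day / library number) relative to the median of that gene, as log2 of the ratio of CPM, with red above and blue below the median and black lines between days. Day 0 library 2, day 15 libraries 3 and 4 and day 18 library 1 are below the median for all 6 genes, and day 12 library 1 and day 18 library 2 are above it for 5.

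Markers of granulosa cells, the somatic cells that surround the oocyte, were low in some of the libraries in which the members were low. The summed level of the 3 granulosa genes in the table, INHA, FSHR and NR5A2 (of 9 listed), had a median of 1131 CPM and ran from 57.8 to 8487 CPM over the 22 ovary libraries. It was 104, 77.7 and 57.8 CPM in day 15 libraries 3 and 4 and day 18 library 1, but 3447 CPM in day 0 library 2, where 0 members were above their medians too. Of the libraries with 5 or 6 members above their medians, day 12 library 1, day 15 library 2, day 18 library 2 and both of day 3 were above the median of the sum, and day 15 library 1 (1103 CPM) and day 18 library 3 (320 CPM) were below it. The genes of the list did not move together, since in day 12 library 1 INHA was the highest of its day at 2284 CPM and NR5A2 the lowest at 164 CPM. CYP11A1 was at 167 CPM in that library and at 9045 in library 3 of the same day. The sum of the gonadotropin receptors FSHR and LHCGR was 13.6 to 29.3 CPM in the 4 libraries with 0 members above their medians and 66.6 to 294 CPM in the 7 libraries with 5 or 6, around a median of 40.0 CPM. The sum of the stroma and gonad genes without NR5A1 (GATA4, WT1 and ESR2) was 71.3 to 90.1 CPM in those 4 libraries and 91.1 to 215 CPM in those 7, around a median of 80.8 CPM, and 1 of the 4 was above it. Sums of other lists overlapped between those 4 and those 7 libraries. Steroidogenesis genes, NR5A1 among them, were at 1038 to 4993 CPM in the 4 and at 477 to 6523 CPM in the 7. Theca and interstitial genes were at 1048 to 5287 and 730 to 6723 CPM, and oocyte genes at 174 to 425 and 175 to 614 CPM. The part of cell makeup in the spread of the 6 genes was not tested.

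Between pairs of members, correlations over the 22 ovary libraries were computed on log2(CPM + 1) after TMM scaling, for 15 pairs in all. The libraries share days and a common scaling, and correlations within days are given beside the pooled ones. Pearson's r was positive in 14 pairs, and 4 pairs had a permutation p that passed Benjamini-Hochberg adjustment over the 15 at 0.05, of which 3 hold ENSSSCG00000005592. Over all pairs of the 15638 genes tested, r was positive in 49.6%, and in 19.1% it was at least as far from 0 as the smallest r that passed (0.528), so the members' count is read against a high background.

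NR5A1 and MKX had r = 0.80 and rho = 0.81 (permutation p 1e-05 and 2e-05, the first being the smallest that 100000 permutations can give, adjusted p 5e-05 and 0.0001). The r was 0.76 without the 2 libraries farthest from the median of NR5A1 and 0.81 within days. EPOR had r between -0.15 and 0.39 with the other 5 genes (-0.18 to 0.40 within days), and 0 of its pairs passed the adjustment. QRFPR had r between -0.15 and 0.44 with the others (-0.18 to 0.53 within days), and 0 of its pairs passed either. NR5A1 and COL6A5 had r = 0.50 and rho = 0.47 (adjusted permutation p 0.0551 and 0.093) over all libraries, 0.37 without the 2 farthest libraries and 0.72 within days.

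ENSSSCG00000005592, the member without a symbol, was almost proportional to NR5A1. Its pooled r with NR5A1 was 0.98 and rho 0.97 (permutation p 1e-05 for each, adjusted p 5e-05 and 7.5e-05), with r = 0.97 without the 2 farthest libraries and 0.98 within days. Its counts amounted to a lowest of 26.2%, a median of 31.7% and a highest of 39.5% of those of NR5A1 in the 22 ovary libraries. The log2 ratio of the pair had a standard deviation of 0.145 over these libraries, where the next smallest of the 15 pairs, NR5A1 with MKX, had 0.4995. In the 44 libraries of the other tissues it had 40 counts in all beside 85 of NR5A1. It had r = 0.80 and rho = 0.80 with MKX (adjusted permutation p 5e-05 and 7.5e-05) and r = 0.53 and rho = 0.47 with COL6A5 (adjusted permutation p 0.0454 and 0.093). Without the 2 farthest libraries these r were 0.70 and 0.60, and within days 0.81 and 0.75. The positions of the pair were not compared here, and the counting's use of strand is not given in the sources used here, so whether the pair shares reads or a transcript was not tested. Both are counted as members here, so they enter the counts and medians as 2 genes although their values follow each other.

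**Figure D5:**
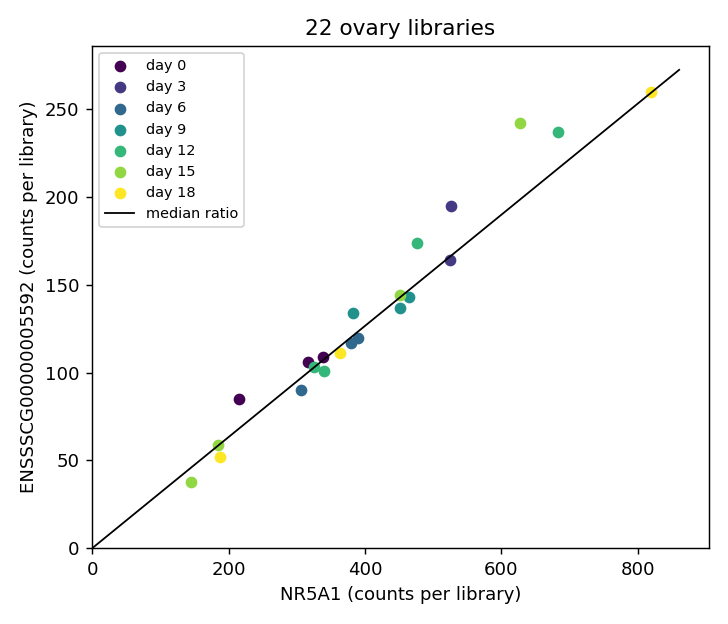
Counts per library of ENSSSCG00000005592 (vertical) against those of NR5A1 (horizontal) in the 22 ovary libraries, coloured by day, with a line at the median ratio of 31.7%. The points of all days lie close to 1 line through the origin.

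Known genes of ovarian function from lists of markers and pathways were tested in the same comparisons. Of 4 steroidogenesis genes in the table (of 8 listed, NR5A1 among them), 0 were called on day 3, 6, 12, 15 or 18 against day 0 or on day 18 against day 6 (edgeR), as were 0 of the 2 gonadotropin receptor genes, FSHR and LHCGR. Of 6 genes of activin, inhibin and AMH signalling, 1 rose on days 6 and 12 against day 0, the activin-binding follistatin gene FST (log2 fold changes 3.93 ± 0.62 and 3.31 ± 0.59, adjusted p 0.00612 and 0.019, edgeR), and also on day 9 (3.50 ± 0.61, adjusted p 0.0141, edgeR). Of all genes 7.53%, 6.04% and 5.47% were called higher on days 6, 12 and 9. Without day 12 library 3, 0 of all genes were called on day 12, and without day 0 library 2, 0 on day 9 (edgeR). The calls of days 12 and 9 in this paragraph were thus lost with 1 library left out. Without day 0 library 1, edgeR called 112 genes on day 6 in place of 1977. Without day 18 library 3 it called 177 on day 18 against day 6 in place of 1959. Whether the genes named here stayed among those was not looked up. Of 14 oocyte genes tested, 3 fell on day 6 (LHX8, ZAR1 and MOS) and 1 on day 9 (MOS, -2.81 ± 0.86, adjusted p 0.0499, edgeR). Among all genes, 5.12% and 3.13% were called lower on those days. On days 3, 12, 15 and 18 against day 0, and on day 18 against day 6, 0 of the 14 were called. Over the ovary libraries LHX8 and ZAR1 had low medians of 0.25 and 0.489 CPM, where 3 counts are 0.223 to 0.292 CPM. MOS had a median of 0.979 CPM in the ovary and 2.02 CPM in the oviduct. Some markers of the other tissues were called lower in the ovary as well. SLC27A6 of the endometrium list was lower on days 6 and 9 (-3.49 and -3.34, adjusted p 0.0351 and 0.0479, edgeR). MSX1, the other endometrium gene tested, was above 0 and uncalled on those days (1.78 and 1.215, adjusted p 0.0599 and 0.185, edgeR). On day 18 against day 6 MSX1 was called lower (-1.98, adjusted p 0.0429, edgeR), as were 1152 of 15638 genes. OVGP1 of the oviduct list was called lower on day 12 (-5.14, adjusted p 0.0343, edgeR), as were 503 of 15638 genes. Of 4 stroma and gonad genes reported here, NR5A1 among them, 0 were called on day 3, 6, 12, 15 or 18 against day 0. On day 18 against day 6 it was also 0 (edgeR). Summed steroidogenesis levels ran from 438 to 11061 CPM over the ovary libraries, and the summed level of the gonadotropin receptors from 13.6 to 294 CPM beside 31.2 to 202 CPM for the sum of the 6 members.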

How the data were processed

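The authors sequenced poly(A) RNA from a whole ovary, endometrium and the ampulla of the oviduct (paired-end; the labels name a TruSeq Stranded kit, the study's methods a TruSeq RNA kit), trimmed the first 13 bases of the reads, aligned them with tophat2 2.0.13 to Sus scrofa 10.2 with Ensembl 78, and deposited whole-number counts per gene and library. FeatureCounts is among the tools in the submitters' processing notes. Its version and use of strand are not given in the sources used here. The table held 66 libraries, and 1 further labelled endometrium sample was not analysed here. Columns were matched to tissue and day only. Total counts were 8962103 to 13442083, so 3 counts are 0.223 to 0.335 CPM. No pair of the 74 within groups was identical.

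CPM was computed on column totals. Days were tested within the ovary with edgeR 4.0.16 (R 4.3.3; filterByExpr, TMM, robust quasi-likelihood fit, Benjamini-Hochberg), with DESeq2 1.42.0 as an alternative, and the steps were tested on simulated data. A standard error was taken as |log2 fold change| over the root of the F statistic. Correlations used 100000 permutations. Symbols were paired by gene ID (11804 of 25322). The rule names every member of a set of up to 30, but 1 gene that met the limits is not reported here. The members, the marker lists and the gene lists were chosen with earlier results of these data known.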

Additional observations from a re-analysis of the deposited data

Results flagged for a closer look

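In groups of 4 libraries, a value was looked at again where its gap to the nearest of the others relative to the range of the group exceeded Dixon's critical value. Of 30 groups of a gene, a tissue and a day, 6 met this. Chance gives about 1 in 20 for continuous values, a rate that does not hold for the 4 groups outside the ovary, whose counts are near 0, so their number is not read as an excess. In the ovary, day 12 library 1 was high for MKX (31.8 CPM, the others up to 10.3) and for QRFPR (55.2 CPM, the others up to 7.55). In the same library CYP11A1 (167 CPM) and NR5A2 (164 CPM) were the lowest of their day, and INSL3 (285 CPM) and INHA (2284 CPM) the highest. Outside the ovary the values lay near the floor of 3 counts, namely COL6A5 in oviduct day 12 library 1 (0.688 CPM), MKX in oviduct day 15 library 1 (0.178 CPM), QRFPR in endometrium day 15 library 2 (0.186 CPM) and MKX in endometrium day 15 library 2, which was low at 0.0 CPM.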

How the results depend on the processing

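The set kept all 6 genes with TMM-scaled CPM, numbered 1 (NR5A1) with a floor of 10 CPM in the ovary, 4 with a limit of 0.5 CPM outside it, and 8 without the limits on days. Leaving out each of the 66 libraries in turn gave 5 to 7 genes, and the same 6 in 51 cases. EPOR was kept in 59 of the 66. Leaving out single libraries gave 0 to 1 members called on day 12 against day 0, 0 to 1 on day 18 against day 6 and 0 to 1 over the 5 days. With day 0 and day 12 libraries 1 both left out, an alternative chosen after seeing the data, 1 was called on day 12 and 1 over the 5 days (EPOR in each, beside 14.3% and 21.9% of all genes). A block by library number changed no call on a member; on day 18 against day 6 NR5A1 and ENSSSCG00000005592 were then at -0.033 and -0.030, reversed from uncalled values of 0.10 and 0.12. With day means taken off, same-number pairs of libraries correlated from -0.567 to 0.471, and 4 of 17 exceeded 0.1. On day 3 against day 0 both same-number pairs did, at 0.471 and 0.340. Taking off means of 2 to 4 libraries forces some of these values below 0, so whether numbers pair the libraries cannot be read from them. Other reversals were of uncalled fold changes. On day 6 against day 0 with library totals alone, chosen after seeing the data, MKX was at -0.17, ENSSSCG00000005592 at -0.086 and EPOR at -0.090, and without 1 library EPOR was between -0.035 and 0.90. On day 12 against day 0, QRFPR was between -0.97 and 1.11 without 1 library, lowest without day 12 library 1, and at -0.57 without both libraries numbered 1. On day 18 against day 6 library totals gave QRFPR 0.08 and EPOR 0.0056, and single libraries left out gave NR5A1 -0.63 to 0.45, ENSSSCG00000005592 -0.67 to 0.49 and QRFPR -0.91 to 0.092. Counts of all genes called moved far more. DESeq2 called 865, 3172, 2578, 250 and 26 genes on days 3, 6, 12, 15 and 18 against day 0, 3343 on day 18 against day 6 and 3579 over the 5 days, where edgeR called 28, 1977, 1448, 4, 0, 1959 and 1333, and on day 12 edgeR called 201 with the block, 2 with only the 2 groups fitted, and 0 to 4026 with single libraries left out. That range was 0 to 563 on day 3, 112 to 3085 on day 6, 0 to 2675 on day 9, 0 to 11 on day 15, 0 to 5 on day 18, 177 to 3112 on day 18 against day 6 and 417 to 3539 over the 5 days, so the background shares rest on single libraries. The cause was not tested.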
